A study of Rattus norvegicus with 4 samples.

Results

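Receptor tyrosine kinases such as the PDGF receptors switch on RAS and the ERK kinases, and cells answer with inhibitors that act at several levels of the same cascade. Sprouty and Spred proteins restrain the step from receptor to RAF, RASA1 returns RAS to its inactive form, and CBL ubiquitin ligases send activated receptors to degradation. In vascular smooth muscle, PDGF-BB drives proliferation, migration and the loss of the contractile state, so these inhibitors sit on a signal that sets the cell's phenotype. The 10 inhibitor genes Spry1, Spry2, Spred3, Errfi1, Lrig1, Sh2b3, Rasa1, Trib1, Cbl and Cblb were taken by name. They comprised every probe set annotated to one of these symbols and to no other gene, 15 of 17279 such probe sets, and all 10 genes were measured among 12922. For 7 of them, both Sprouty genes included, 1 probe set was read. Spry4, Spred1 and Spred2 were not analysed here.

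The RNA came from cultured rat aortic smooth muscle cells, seeded at 10000 per cm2, held in 10% fetal bovine serum during 24 h and then kept for 72 h without serum or insulin. The vehicle group (n = 2 arrays) received acetic acid (10 mM) with 0.2% bovine serum albumin for 3 h. The PDGF-BB group (n = 2) received platelet-derived growth factor BB at 30 ng/mL for the same 3 h. The same acetic acid and albumin concentrations are recorded for both groups. Both groups thus shared the long starvation, and the labels name no strain, passage or separate cultures, so p-values cover the spread among the 4 arrays alone, which may be technical. The design asked which early genes go with phenotypic modulation of these cells.

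Of the 10 inhibitors, 7 rose and 1 fell after PDGF-BB in the limma test (adjusted p under 0.05), and 2 did not pass. Among all 12922 genes, 12.4% were higher and 15.3% lower by the same rule. Errfi1, Trib1, Spry2, Sh2b3 and Spred3 were the 5 that were called and at least 2-fold higher, as 4.60% of all genes were; 3.78% of all genes were called and at least 2-fold lower, as was Spry1. Rasa1 and Cbl rose less, Lrig1 and Cblb did not pass, and Spry1 was the member that fell. The median log2 fold change over the 10 genes was 1.45, against -0.03 over all genes. The 10 genes were chosen with earlier results of these data known, so these comparisons describe the set and do not test it. Fold changes are PDGF-BB minus vehicle in log2(intensity + 16), a scale that understates the change of dim genes. In bulk RNA, fewer cells of a type and less RNA per cell cannot be told apart.

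Array medians lay between 132 and 148, lowest on PDGF-BB replicate 2, and on each array 41.0% to 41.8% of probe sets did not exceed 80.3, the brightest Bacillus control value, used here as a rough guide to background. All 12 smooth muscle markers measured were above that level in at least 1 group, with summed intensities of 77028 to 78517 in vehicle and 73439 to 74985 in PDGF-BB arrays. By limma 4 were lower and 0 higher, where 15.3% of all genes were lower and 12.4% higher. The 4 were Lmod1 (log2 fold change -1.70), Synpo2 (-0.94), Smtn (-0.79) and Myh11 (-0.70), and brighter markers outweigh them in the sums. Of 7 endothelial markers, 6 stayed at or below background in both groups, Pecam1 and Vwf among them, and the list summed to 367 to 372 in vehicle and 296 to 300 in PDGF-BB arrays. Of 8 leukocyte markers, 5 stayed at or below it, Ptprc and Cd3e among them, with sums of 1857 to 1891 and 1620 to 1728. Cd14 was well above it, with means of 1434 in vehicle and 1209 in PDGF-BB arrays, and made up most of these sums. Lyz2 (204 and 215) and Aif1 (82.8 and 92.3) were above it too. For 6 fibroblast and fat markers, 4 of them at or below background, the sums were 235 to 254 and 200 to 228. In these 3 lists 0 markers were higher and 1, Esam, was lower by limma; their part in the results was not tested.

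**Figure D1:**
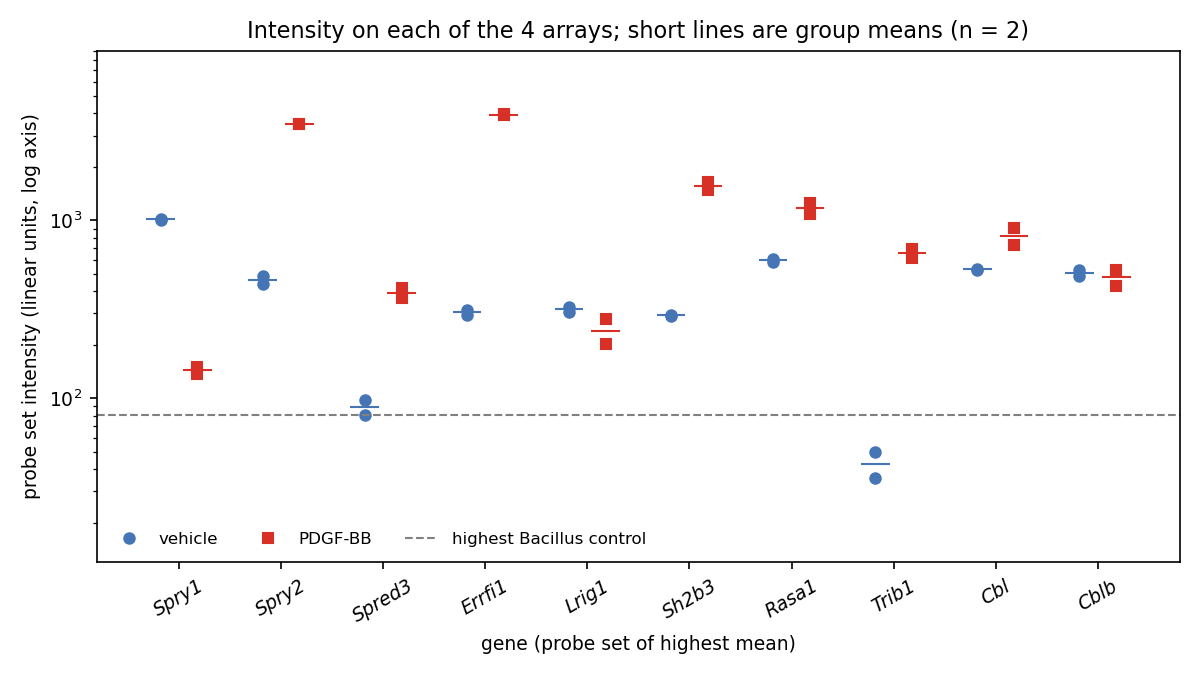
Intensity (log axis) of the 10 inhibitor genes on each of the 4 arrays, by the probe set of highest mean; circles are vehicle, squares PDGF-BB, short lines group means (n = 2) and the dashed line the highest Bacillus control, 80.3. Spry1 drops from a mean of 1013 to 144, Spry2 and Errfi1 climb to 3506 and 3925, and the vehicle and PDGF-BB symbols overlap only for Cblb.

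Sprouty genes moved in opposite directions. Spry1 and Spry2 encode related proteins that are phosphorylated after growth factor stimulation and dampen RAS and ERK signalling, and both are commonly described as induced feedback inhibitors. Spry1 (probe set 1379380_at) read 1001 and 1025 under vehicle and 150.3 and 137 after PDGF-BB. Both treated arrays were far below both controls, a fall by 2.69 on the log2 scale (SE 0.09, 95% interval -2.94 to -2.44, limma adjusted p 0.000710) or 6.44-fold. It remained above the background guide after treatment. Spry2 (1374864_at) read 438 and 486 with vehicle and 3504 and 3508 with PDGF-BB. Its log2 fold change was 2.88 (SE 0.10, 95% interval 2.62 to 3.14, limma adjusted p 0.000708), or 7.38-fold higher. Ordered by fold change among 12922 genes, Spry1 was number 17 from the lowest and Spry2 number 82 from the highest.

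The difference between the Sprouty changes, Spry1 minus Spry2, was -5.57 on the log2 scale. The within-array difference had an SD of 0.08 over the vehicle arrays and 0.08 over the PDGF-BB arrays, so the groups were apart by many times the spread within them. With 2 arrays against 2, the exact two-sided permutation test gave p = 0.333, the smallest this design allows, also after adjustment over the 9 such comparisons of Spry1 with another member. Over 12 alternatives the difference ranged from -5.73 to -5.14. Spry1's call was kept under all 13 alternatives run, with log2 fold changes of -2.81 to -2.37, and Spry2's with 2.76 to 2.96.

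The start-site windows of both Sprouty genes are printed because they belong to the pair whose changes diverge. Each holds the 250 bases before an annotated start (RefSeq, build GRCr8), in the direction of transcription, and capitals mark matches to the EGR motif GCGNGGGCG on either strand.
Spry1, chr2:122485097-122485346, plus strand: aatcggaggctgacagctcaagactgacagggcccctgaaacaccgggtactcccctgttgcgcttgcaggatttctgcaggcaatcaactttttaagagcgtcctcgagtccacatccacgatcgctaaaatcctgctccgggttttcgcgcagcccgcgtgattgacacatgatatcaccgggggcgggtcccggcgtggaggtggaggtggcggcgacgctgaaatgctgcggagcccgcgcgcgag
Spry2, first start, chr15:89111927-89112176, minus strand: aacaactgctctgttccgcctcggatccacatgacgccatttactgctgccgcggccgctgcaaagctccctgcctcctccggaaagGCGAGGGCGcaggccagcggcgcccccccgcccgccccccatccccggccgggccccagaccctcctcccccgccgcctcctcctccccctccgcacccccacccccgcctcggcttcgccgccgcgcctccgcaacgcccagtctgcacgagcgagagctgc
Spry2, second start, chr15:89109843-89110092, minus strand: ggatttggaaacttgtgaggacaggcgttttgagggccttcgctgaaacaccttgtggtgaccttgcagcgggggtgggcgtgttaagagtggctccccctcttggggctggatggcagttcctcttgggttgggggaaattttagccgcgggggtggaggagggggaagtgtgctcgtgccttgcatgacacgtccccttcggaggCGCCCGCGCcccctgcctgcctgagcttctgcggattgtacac
The 5 motifs searched on both strands were TGANTCA for AP-1, TGACGTCA for CRE, CCGGAAG for ETS, GCGNGGGCG for EGR and GTAAACA for FOXO factors, and a match is a description of letters, not a binding site. Spry1's window held none of the 5. Spry2 held 1 EGR match in each window, from base -163 to -155 before the first start and from -43 to -35 before the second. The inhibitors had 10 windows from 9 genes, since Spry2 had 2 and Trib1 had none. Among 33469 windows of this length, 4.29% held the EGR motif. So did 3 of these 10 windows, the 2 of Spry2 and that of Cbl. AP-1, CRE and FOXO motifs were in 0 of the 10, against 6.34%, 1.59% and 3.21% of all windows, and the ETS motif was in 1, that of Lrig1, against 7.27%. The windows were rich in G and C, at 60.8% for Spry1 and 74.8% and 61.6% for Spry2, against a median of 51.2%. Over the 10 windows the share ran from 57.2% for Spred3 to 76.8% for Cbl. The EGR motif is itself mostly G and C, and the motif shares were not matched for base content.

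Spred3, the Sprouty-related member with an EVH1 domain, rose with Spry2. Its brighter probe set, 1375051_at, read 97.9 and 81.0 with vehicle and 416 and 364 with PDGF-BB. The log2 change was 1.95 with an SE of 0.13 (limma adjusted p 0.00250). The second probe set, 1381073_at, read 40.8 and 40.9 against 57.2 and 78.5. Its arrays were also apart in the same direction, but all lay at or below the background guide and the log2 fold change of 0.55 missed the threshold (limma adjusted p 0.0648). Averaging both probe sets gave 1.25 for the gene, still called.

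Of the inhibitors that act at the receptors or their adaptors, Errfi1 and Sh2b3 rose and Lrig1 did not pass. Errfi1 encodes MIG6, which binds the EGF receptor kinase domain and blocks it. Its probe set (1373093_at) read 295 and 315 with vehicle and 3944 and 3906 after treatment, a log2 change of 3.62 with an SE of 0.09 (limma adjusted p 0.000433) or 12.3-fold, number 43 from the highest among all genes. Sh2b3 encodes LNK, an SH2 adaptor that limits signalling from cytokine and growth factor receptors. Its probe set (1367723_a_at) read 292 and 296 against 1652 and 1484, with a log2 change of 2.35 with an SE of 0.10 (limma adjusted p 0.000922). In both genes each treated array was several times brighter than each control array.

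Lrig1, a transmembrane protein that promotes the loss of EGF receptor family members, did not follow them. Its probe set (1374652_at) read 306 and 326 with vehicle and 278 and 202 with PDGF-BB. The arrays did not overlap, but the treated pair differed widely, and the log2 fold change of -0.39 missed the threshold (SE 0.17, limma adjusted p 0.182). Its 95% interval of -0.84 to 0.07 spans 0 and lies below the interval of each of the 7 members that rose. Leaving out either PDGF-BB array moved the value to -0.60 or -0.17, neither called.

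Trib1, a Tribbles pseudokinase that guides the ubiquitin ligase COP1 to its substrates, rose from near background. The brighter probe set, 1371019_at, read 35.6 and 50.2 with vehicle and 691 and 616 with PDGF-BB, and the second, 1389987_at, read 15.6 and 17.5 against 271 and 251. All vehicle values were below the background guide and all treated values above it. The log2 fold changes were 3.52 (SE 0.16, limma adjusted p 0.00102) and 3.09 (SE 0.10, limma adjusted p 0.000633). The size depends on the offset: with an offset of 1 the brighter probe set gave 3.92 and with 64 it gave 2.75, both called.

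Rasa1 and Cbl rose less than 2-fold, and Cblb did not pass. Rasa1 encodes the RAS GTPase-activating protein p120 RasGAP, which docks on the activated PDGF receptor beta. Its probe set (1370085_at) read 587 and 609 with vehicle and 1258 and 1085 after treatment, a log2 change of 0.95 with an SE of 0.11 (limma adjusted p 0.00834). The groups were apart, yet the call ended without vehicle replicate 1 (0.0746) or vehicle replicate 2 (0.0658), with values of 0.92 and 0.97.

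Cbl encodes a RING-type ubiquitin ligase that tags activated receptor tyrosine kinases. Its brightest probe set, 1388505_at, read 536 and 528 with vehicle and 905 and 732 after treatment, a log2 change of 0.60 with an SE of 0.13 (limma adjusted p 0.0387). The other probe sets had log2 fold changes of 0.64 (1375732_at, limma adjusted p 0.0689), 0.14 (1379603_at, 0.404) and 0.21 (1380069_at, 0.191). On all 4 probe sets both treated arrays were above both controls, but 1 of 4 was called. The Cbl call was lost without vehicle replicate 1 (limma adjusted p 0.177), vehicle replicate 2 (0.182) or PDGF-BB replicate 1 (0.0608), with an offset of 1 (0.0753), and with the mean over its probe sets (0.0589).

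Cblb (1371027_at), the second CBL family ligase, read 488 and 528 with vehicle and 529.7 and 427.5 with PDGF-BB. It was the member whose groups overlapped. The log2 change was -0.09 with an SE of 0.14 (limma adjusted p 0.689), a sign that turned after cyclic loess normalization (0.0025) and without PDGF-BB replicate 2 (0.06). Its 95% interval, -0.46 to 0.28, corresponds to a change of between -27.1% and 21.1%.

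**Figure D2:**
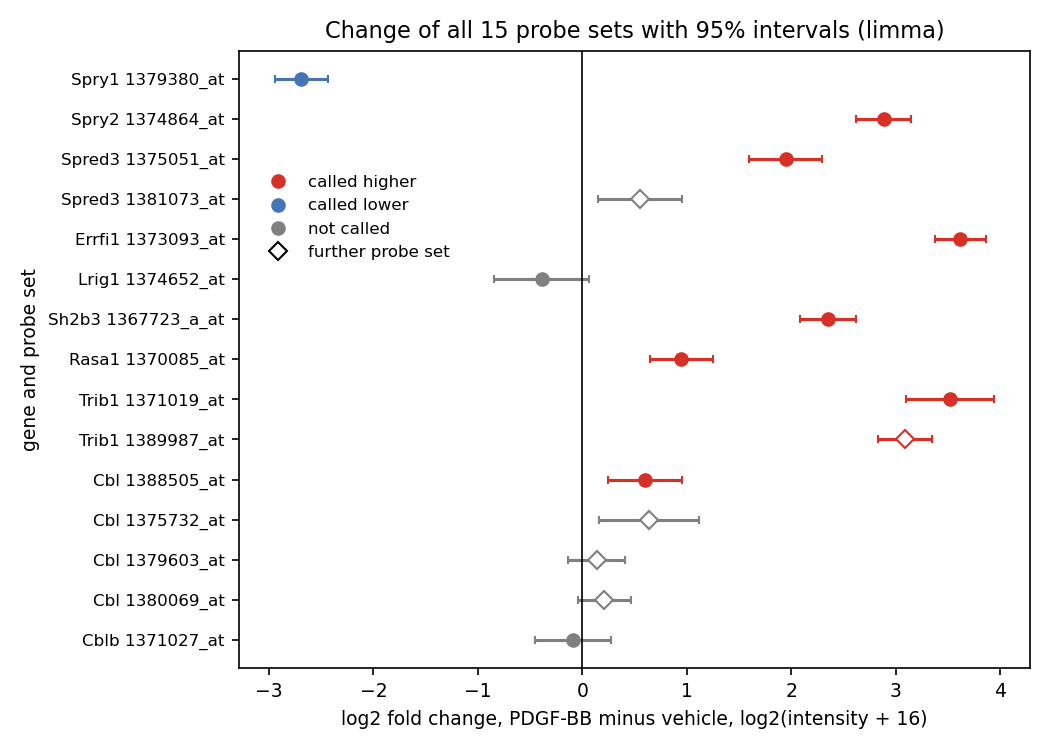
Log2 fold change (PDGF-BB minus vehicle) of all 15 probe sets with 95% intervals from limma; filled circles stand for the gene, open diamonds are further probe sets, and colours give the call. Spry1 alone is called lower, at -2.69, while 8 probe sets are called higher, from 0.60 for Cbl to 3.62 for Errfi1.

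By probe set, 8 of 15 were called higher, 1 lower and 6 not, where 11.4% and 12.9% of all 23707 probe sets were called higher and lower. The groups were apart for 9 of the 10 genes and 14 of the 15 probe sets, against 67.5% of all genes and 63.0% of all probe sets. In 9 of the 10 genes the intensity was lower on PDGF-BB replicate 2 than on replicate 1, as in 70.9% of all genes. The median gap between these arrays was -0.17 on the log2 scale over the inhibitors and -0.09 over all genes. The cause of this gap was not tested. The 5 strongest increases and Spry1 kept their direction without either PDGF-BB array. Spry1 changed by -2.75 without PDGF-BB replicate 1 and by -2.63 without PDGF-BB replicate 2.

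Setting Spry1 against the other inhibitors gave differences in change of -6.31 for Errfi1, -6.20 for Trib1, -5.04 for Sh2b3 and -4.63 for Spred3. The differences were -3.64 for Rasa1 and -3.29 for Cbl, and they stayed at -2.60 for Cblb and -2.30 for Lrig1. In all 9 comparisons the exact permutation p was 0.333, the smallest possible. The SD of the within-array difference was largest for Trib1 with vehicle, 0.23, and for Lrig1 with PDGF-BB, 0.22. Every difference kept its sign in the 12 alternatives run on it.

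**Figure D3:**
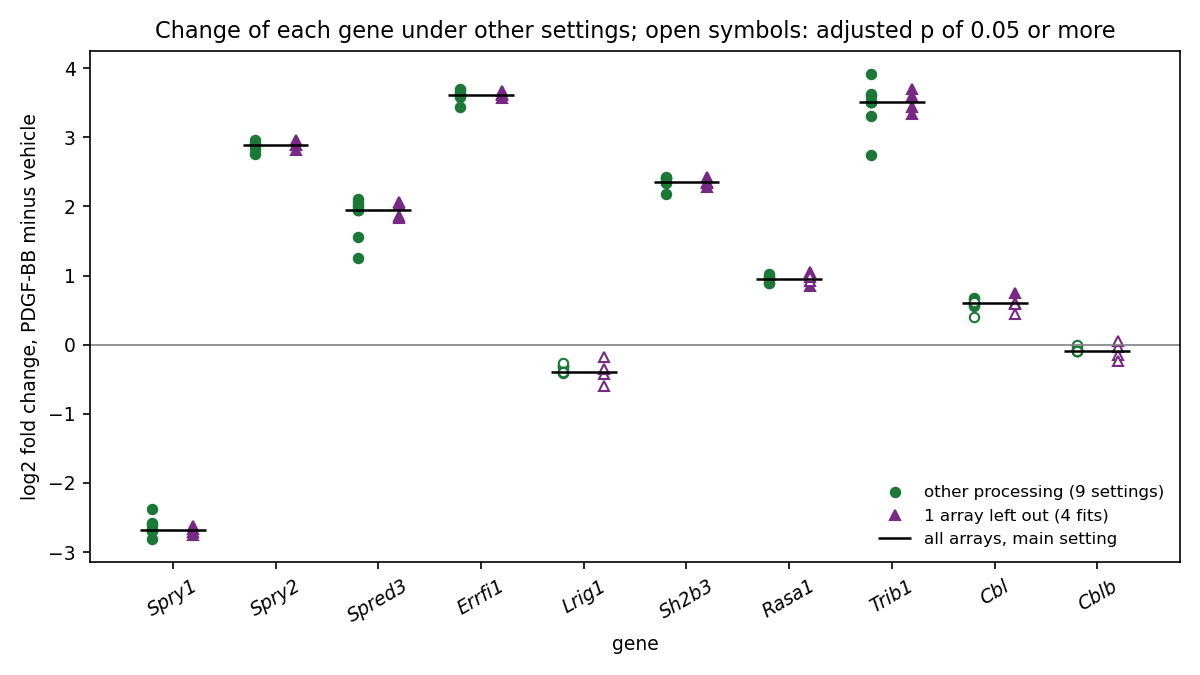
Log2 fold change of each inhibitor gene under 9 other processing settings (circles) and with 1 array left out (triangles); the black line is the value with all arrays, and open symbols mark an adjusted p of 0.05 or more. Spry1 keeps to between -2.81 and -2.37, and open symbols appear for Rasa1, Cbl, Lrig1 and Cblb.

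Further genes of the same families were measured in 29 of 40 cases, with 11 higher, 3 lower and 15 not passed and a median log2 fold change of 0.14, where 12.4% of all genes were higher and 15.3% lower. Trib2, the pseudokinase related to Trib1, rose by 2.46 (SE 0.09), reading 24.3 and 26.0 with vehicle, below the background guide, and 219 and 202 with PDGF-BB. The size of its rise ranged from 1.55 with the mean over its probe sets and 1.62 with an offset of 64 to 3.02 with an offset of 1, called each time. The RAS GTPase-activating proteins Rasa2 and Rasal2 rose by 2.18 (SE 0.09) and 2.10 (SE 0.13). Lrig3, a relative of Lrig1, fell by 0.62 (limma adjusted p 0.0330), the receptor phosphatase Ptprj by 0.60 (0.0414) and the adaptor Grb14 by 0.39 (0.0491). Each of these 3 decreases lost its call without either vehicle array and without PDGF-BB replicate 2, with limma adjusted p-values of 0.0706 to 0.259, and Grb14 also without PDGF-BB replicate 1 (0.0927), with the replicate block (0.104) and after median centring (0.107). An offset of 1 ended all 3 calls (0.0667 to 0.0805), and the mean over probe sets those of Lrig3 (0.0649) and Ptprj (0.0860). With the replicate block the list had 9 higher and 2 lower. It had fewer still when either vehicle array was left out, where calls over all genes also fell.

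Among receptor tyrosine kinase genes, 5 of 28 were higher, 3 lower and 20 not passed, with a median of -0.02. The share called was close to the 27.7% of all genes called in either direction. For 11 of the 28 both group means were at or below the background guide. With the filter at a mean of 100, 6 of 16 were higher and 5 lower, where 53.7% of the 8585 genes kept were called. Egfr, the target of MIG6 and LRIG1, rose by 2.53 (SE 0.09), from 267 and 255 with vehicle to 1622 and 1536 with PDGF-BB. Epha2, an ephrin receptor, rose by 4.06 (SE 0.11) and the VEGF receptor Flt1 by 3.64 (SE 0.14) from a vehicle mean of 50.8, below the background guide. Pdgfrb, the main receptor for PDGF-BB, read 1836 and 1598 with vehicle and 892 and 749 with PDGF-BB and fell by 1.05 (SE 0.14, limma adjusted p 0.0105). The FGF receptor Fgfr2 fell by 1.77 (SE 0.09) and Fgfr3 by 0.43 (SE 0.08). The mean over probe sets gave smaller changes, called in each case: 1.98 for Flt1, 1.83 for Egfr and -1.03 for Fgfr2. The Fgfr3 call ended without any 1 of the 4 arrays (limma adjusted p 0.0651 to 0.194), with the replicate block (0.0734) and with an offset of 1 (0.0527). With the mean over its probe sets, Pdgfrb changed by -0.45 and was not called (limma adjusted p 0.0633). Leaving out arrays ended its call in 3 of 4 fits: those lacking vehicle replicate 1 (0.0764), vehicle replicate 2 (0.0546) and PDGF-BB replicate 2 (0.0544). In the same 3 fits the list had 5 higher and 1 lower.

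The adaptors, RAS proteins and ERK cascade enzymes between receptor and nucleus split evenly, with 7 of 29 higher, 7 lower and 15 not passed and a median of 0.02, against 12.4% and 15.3% of all genes. The kinase gene Rps6ka3, a substrate of ERK, rose by 1.13 (SE 0.14), and the RAS-related genes Rras2 and Mras by 0.85 (SE 0.09) and 0.78 (SE 0.09). Gab1, a docking adaptor, fell by 1.01 (SE 0.09), the FGF receptor adaptor Frs3 by 0.94 (SE 0.19) within the background range and Map2k5, a MAP kinase kinase of a parallel branch, by 0.88 (SE 0.09). The Frs3 value ran from -0.49 with an offset of 64 to -1.34 with an offset of 1, where it was not called (limma adjusted p 0.0773). When either vehicle array was left out, the list lost nearly all of these calls. Calls over all genes also became far fewer in those fits. Rps6ka3 also missed the threshold without PDGF-BB replicate 1, and Frs3 without PDGF-BB replicate 2.

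Of the genes listed as ERK-responsive early genes, 28 of 30 rose and 0 were lower, with a median of 2.31. Among all genes 12.4% were higher and 15.3% lower. The list was chosen with earlier results of these data known, so its count is no test of ERK activity. Phlda1 rose by 6.43 (SE 0.09) and the ERK phosphatase genes Dusp5 and Dusp6 by 5.46 (SE 0.09) and 5.41 (SE 0.10). The Phlda1 value was 5.21 with an offset of 64 and 7.24 with an offset of 1; Dusp5 and Dusp6 gave 4.74 and 4.70 with an offset of 64, and Dusp6 gave 4.51 with the mean over its probe sets, all called. Fewer of the 28 were called when either vehicle array was left out, where calls over all genes also fell.

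**Figure D4:**
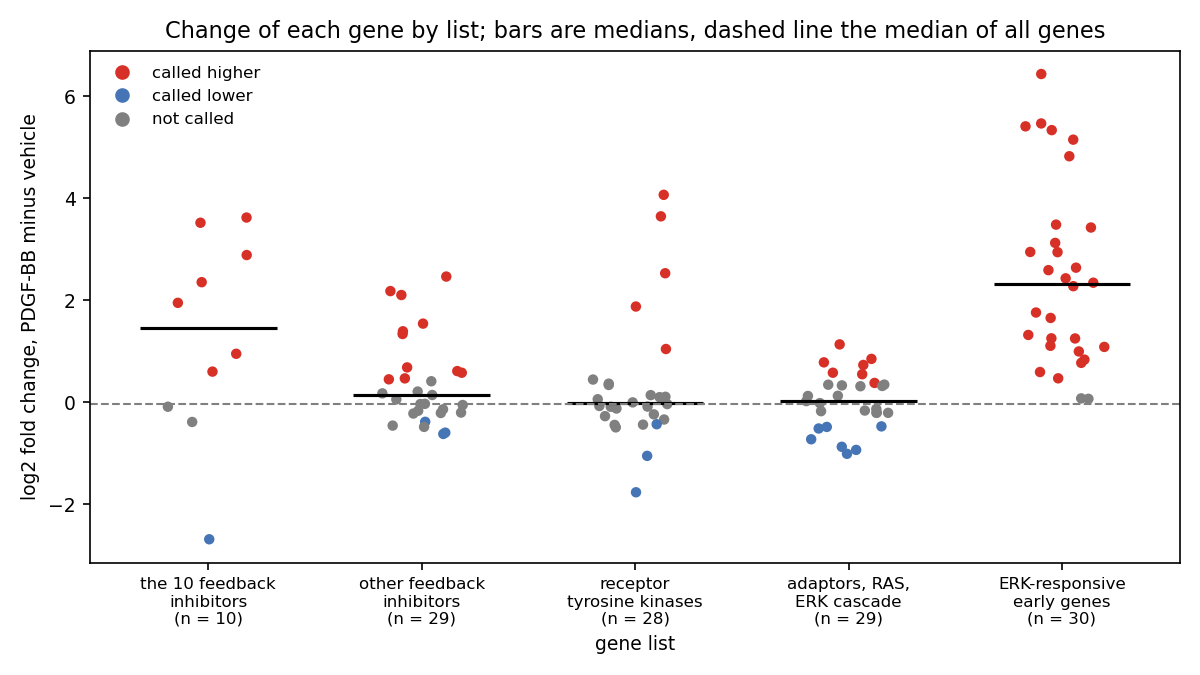
Log2 fold change (PDGF-BB minus vehicle) of each gene in the 10 feedback inhibitors and 4 pathway lists of 29, 28, 29 and 30 genes; bars are list medians, the dashed line is the median of all genes and colours give the limma call. Spry1, at -2.69, lies below every gene of the other lists, whose lowest is Fgfr2 at -1.77.

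The genes whose values over the 4 arrays lay closest to each Sprouty gene were found among 8164 genes with a mean above a minimum fixed for this purpose, by the root mean square difference of log2 values centred on the gene's own mean. For Spry1 these were Zmat1 (0.05), Dhrs3 (0.07) and Sox4 (0.07), with log2 fold changes of -2.60, -2.82 and -2.82, the last less negative with the mean over the probe sets of Sox4. For Spry2 they were Dot1l (0.03), Klf4 (0.04) and Plat (0.05), with 2.83, 2.94 and 2.92. With 4 arrays in 2 groups this likeness reflects mainly an equal fold change.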

How the data were processed

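Affymetrix arrays measured RNA from 2 vehicle and 2 PDGF-BB samples; groups and replicate numbers came from the titles. Per probe set, the authors deposited 1 intensity per array, linear to judge by its range; how it was background-corrected, summarised and scaled is not given in the sources used here. This deposited table had 23764 probe sets, of which 57 control probe sets were left out. A platform annotation of 2016 named the genes, and all 10 inhibitor genes matched a current identifier under the same symbol. The probe set of highest mean intensity stood for a gene.

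Values were tested as log2(intensity + 16) in limma 3.58.1 (lmFit, then eBayes; R 4.3.3), two-sided, on 2 residual degrees of freedom. Benjamini-Hochberg adjustment covered 23707 probe sets and the threshold was 0.05. The number of arrays limits the precision. Named genes were the 10 members, up to 3 called genes per direction with the largest change in each pathway list, the 3 nearest patterns of each Sprouty gene, and Acta2 and Pdgfrb as checks; Acta2 had a log2 fold change of -0.10 (limma adjusted p 0.504). Pathway and marker lists came from general knowledge, and members and lists were chosen with earlier results of these data known. Alternatives were other offsets (1 and 64), array scalings, a filter at a mean of 100, an intensity trend, the replicate block, the mean over probe sets, and leaving out each array.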

Additional observations from a re-analysis of the deposited data

How the results depend on the processing

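The 10 inhibitors had 5 to 7 genes called higher and 1 called lower over all 13 alternatives to the main setting, the fewest without vehicle replicate 1 or vehicle replicate 2. Spry1, Spry2, Errfi1, Sh2b3, Spred3 and Trib1 kept direction and call in all 13, and Lrig1 was called in none of them, with limma adjusted p-values up to 0.453 and the lowest at the threshold, from the filter at a mean of 100. Cbl was called in 8 of 13 and Rasa1 in 11. Cblb turned sign after cyclic loess normalization (0.0025), and over the fits that left out 1 array it ranged from -0.24 (without PDGF-BB replicate 1) to 0.060 (without PDGF-BB replicate 2); the cause was not tested. Leaving out a vehicle array lowers the number of genes called, from 1603 higher and 1971 lower to 491 and 300 without vehicle replicate 1 and to 524 and 323 without vehicle replicate 2; without PDGF-BB replicate 1 they were 1061 and 1631 and without PDGF-BB replicate 2 1035 and 859. Such fits hold a single array in 1 group, assumed to vary like the other group.

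The titles link vehicle and PDGF-BB samples only by a replicate number and do not say whether same-numbered arrays were paired. The deviations of same-numbered arrays had a correlation of -0.10 over probe sets, which with so few arrays cannot settle this. With the replicate block, 7 inhibitors were higher and 1 lower, with the Spry1 change at -2.69, Cbl at limma adjusted p 0.0378 and Spry1 minus Spry2 at -5.57; the block changed no call of an inhibitor. Of the other named genes, Grb14 and Fgfr3 lost their calls with it.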

Other observations

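The protein-coding genes nearest to each inhibitor gene, up to 2 on either side in the RefSeq order of build GRCr8, were looked at after the members' values were known. Of 25 measured neighbours, 2 were higher, 6 lower and 17 did not pass by limma, a share called near the 27.7% of all genes, so the following values describe single genes only. Next to Spry1, Nudt6, a Nudix hydrolase gene, fell from 137 ± 12.4 to 34.1 ± 1.26 (SD, n = 2), by 1.60 on the log2 scale with an SE of 0.10 (limma adjusted p 0.00231). Its PDGF-BB mean lay below the background guide. The Nudt6 change ran from -1.03 with an offset of 64 to -1.97 with an offset of 1, called in both. Afg2a, which lies between Nudt6 and Spry1, had -0.31 (SE 0.11, limma adjusted p 0.110). Next to Spry2, Ndfip2, an adaptor of NEDD4-family ubiquitin ligases, had 0.27 (SE 0.09, limma adjusted p 0.100). Afg2a and Ndfip2 passed with the filter at a mean of 100 (limma adjusted p 0.0299 and 0.0328). Afg2a also passed with quantile normalization (0.0374), and Ndfip2 with an offset of 64 (0.0370) and with the intensity trend (0.0100). Beside Sh2b3, Atxn2, which encodes the RNA-binding protein ataxin-2, rose by 1.34 (SE 0.14). Other called neighbours were lower beside members that rose: Rere (-0.87) beside Errfi1, Washc5 (-0.40) beside Trib1, and Rnf26 (-0.61) and Mcam (-0.67) beside Cbl. Bbx (-0.91) was lower beside Cblb, which did not pass. Nudt6 and Atxn2 kept their calls when any 1 array was left out, and beside Rasa1 the cyclin H gene Ccnh rose by 0.64 (SE 0.09) but lost its call without vehicle replicate 1 (limma adjusted p 0.110) or vehicle replicate 2 (0.117).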
